A study of Homo sapiens with 6 samples.

Results

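The wide H3K27me3 domains described here are the 2868 broad peaks of at least 5000 bp in control shRNA cells that overlapped at least 1 peak of the shE2F1 cells by 1 bp or more. They made up 2.31% of the 123957 control shRNA peaks and held 14.7% of the bases that those peaks covered, or 21.1 Mb. Every control shRNA peak of this width had a shE2F1 overlap, so the overlap condition removed 0 peaks, whereas 67.5% of all control shRNA peaks met it. The members were chosen by their width in control shRNA and their presence in shE2F1, and these measures are given as a description with no test.

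All libraries came from MDA-MB-231, an established human triple-negative breast cancer cell line. H3K27me3 chromatin immunoprecipitation sequencing (ChIP-seq) was done in cells exposed for 24 h to lentivirus with a control shRNA or with one that targets E2F1 (shE2F1), followed by 72 h of selection with puromycin at 2 µg/ml. E2F1 ChIP-seq was done without treatment, after 72 h in the solvent DMSO and after 72 h in 1 µM GSK126, which inhibits the methyltransferase EZH2. Each of the 5 libraries stands alone, so no difference between conditions has a replicate check. H3K27me3 was therefore mapped in transduced cells and E2F1 in cells that were not, and neither H3K27me3 after GSK126 nor the level of E2F1 after the shRNA was analysed here. The paper reports that GSK126 greatly lowered global H3K27me3 levels. Domains mapped without the drug may therefore not have carried the mark in the GSK126 cells.

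Trimethylation of lysine 27 on histone H3 is laid down by Polycomb repressive complex 2 (PRC2), whose catalytic subunit is EZH2, and it marks genes that are kept silent. PRC2 binds its own product and is stimulated by it, and so the mark can spread from a site of recruitment over neighbouring nucleosomes until long stretches of chromatin are covered. E2F1 is a transcription factor of the cell cycle that binds GC-rich promoters of replication and mitosis genes, most of which are active in dividing cells. Wide domains and E2F1 sites are therefore usually found in different kinds of chromatin.

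E2F1 summits lay inside a wide domain at few places. Of those with an E2F-type motif, 8 are shown by their sequence as examples of positions shared by peaks from separate cells. These sites were chosen after their values were seen. Most summits in domains, 11 of 18 in DMSO and 40 of 55 in GSK126, had no such motif nearby. The motif was searched within 100 bp of each summit as the word TTCCCGC and its variants, namely TTCGCGC and further TTGCCGC and lastly TTGGCGC, on either strand. Each line gives 30 bases of the hg38 reference around the match nearest to the summit, read 5′ to 3′ on the strand that holds the motif, with the motif in capitals. The first 5 sites had overlapping E2F1 peaks in DMSO and in GSK126, and the last 3 had a peak in GSK126 only.
TENM4, chr11:79437717-79437746, plus strand: cgggaaacaggTTGCCGCggagtcccgtcc
BLACAT1, chr1:205456983-205457012, plus strand: ggagctgcaacTTCGCGCctaagcgcccgc
70017 bp from FOXD2, chr1:47508071-47508100, minus strand: aggagctggctTTCCCGCcagataagagcg
FSTL4, chr5:133611243-133611272, plus strand: tcctagtgcacTTGCCGCgccgcgcggagg
DAB2IP, chr9:121599624-121599653, minus strand: ggaaagtttccTTCGCGCcagctgggccga
GABBR2, chr9:98707317-98707346, minus strand: agtacgctcggTTGGCGCctcttccatcgc
CHRD, chr3:184380692-184380721, minus strand: aggcatagaccTTCCCGCcgaaggtgcagc
SHH, chr7:155808553-155808582, plus strand: ggttgctggagTTGGCGCccccgccccttg
Such a motif was present in 1.68% of the 103449 windows of 201 bp that tile the domains and in 9.16% of the 201 bp windows centred on start sites of protein-coding genes. The match is a description of the sequence and was not tested as a binding site.

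The domains were mostly just past the threshold. Their median width was 6464 bp, the middle 50% lay between 5614 and 8087 bp, and 2533 were under 10000 bp. Another 335 reached 10000 bp and 18 reached 20000 bp. The narrowest members measured 5000, 5001 and 5001 bp, and the 3 control shRNA peaks just outside measured 4999 bp each. One of the 2 domains of 5001 bp lay in KRT2, a keratin gene, and was 56.0% covered in shE2F1, while 41.2% to 100% of the 3 peaks of 4999 bp was covered. Members and near misses at the threshold thus did not form separate groups.

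The widest domain spanned 38715 bp at chr20:58749148-58787862 (hg38). It overlapped no protein-coding gene, and the nearest one, NPEPL1, an aminopeptidase gene, was 29909 bp away. Its mean fold enrichment over background was 3.34 in control shRNA and 3.35 in shE2F1, and 95.4% of its bases lay in shE2F1 peaks. The next widest, 33753 bp at chr20:51081222-51114974, was again outside protein-coding genes, 58114 bp from KCNG1, which encodes a potassium channel subunit. It was 90.6% covered in shE2F1, and the folds were 3.39 in control shRNA and 3.03 in shE2F1. Of the 10 widest domains, 4 lay in a protein-coding gene, and only that on RSPO1, a secreted activator of Wnt signalling, held the start site of one. This domain measured 24704 bp and contained the whole of RSPO1. The other 3 lay within PDZD2, which encodes a PDZ-domain protein, PLXNA4, a semaphorin co-receptor of growing axons, and RBFOX3, a splicing factor of neurons. They measured 26161, 25894 and 25098 bp and were 84.4%, 86.5% and 92.6% covered in shE2F1.

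In shE2F1 cells 81.4% of all domain bases were covered by H3K27me3 peaks, and 48.1% when shE2F1 peaks below a −log10 q of 2 were left out. The share with all peaks was 61.0% over all control shRNA peaks, 69.7% over those of 2000 to 4999 bp and 6.14% over the genome without assembly gaps. Within the members it was 80.1% below 10000 bp and 86.3% from 10000 bp upwards. The covered share of single domains ranged from 6.07% to 100%, with a median of 83.6% and quartiles of 71.0% and 95.1%. Full cover was seen in 455 domains (15.9%), against 22.5% of all control shRNA peaks, most of which are much shorter. A total of 181 domains (6.31%) were covered over less than 50% of their bases and 22 over less than 25%.

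**Figure D1:**
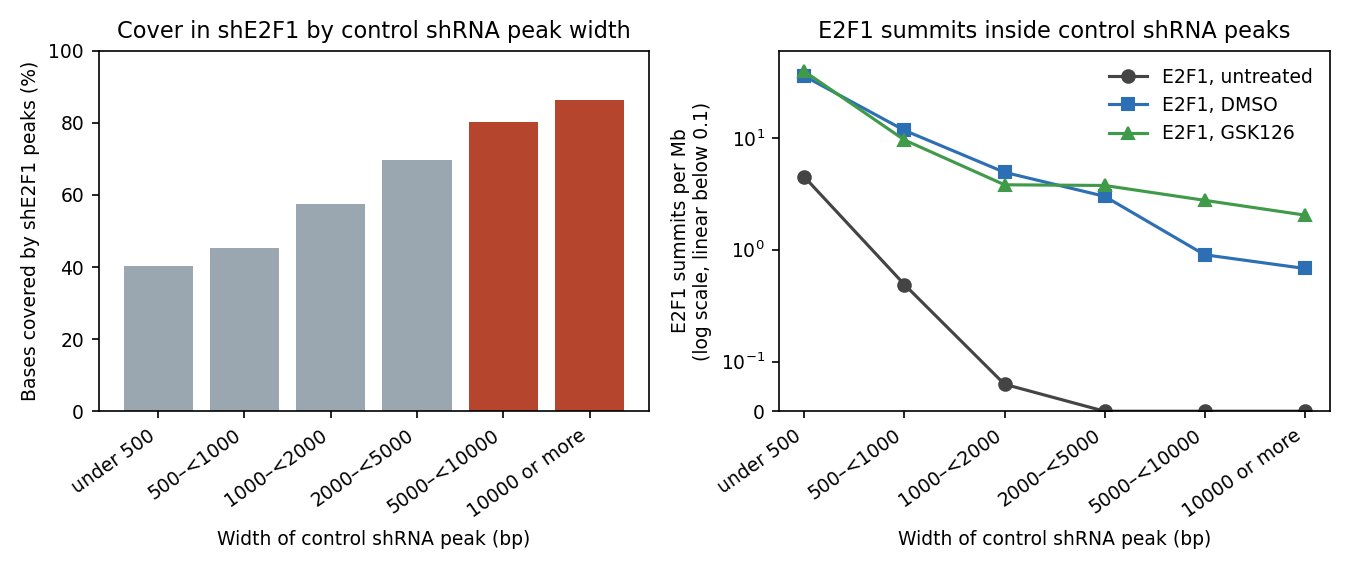
Control shRNA H3K27me3 peaks by width class in bp, with the wide domains in red in the left panel. Bars give the percent of bases covered by shE2F1 peaks, which is 40.3% in the shortest class and 86.3% from 10000 bp, and points give E2F1 summits per Mb of peak in the 3 E2F1 lists, on a log axis that is linear below 0.1, where untreated cells have 0 in the 3 widest classes.

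The same domains were divided differently in the other library. In 1209 domains a single shE2F1 peak overlapped, in 1581 there were 2 or 3, and in 78 there were at least 4, up to 6. The widest overlapping shE2F1 peak had a median of 0.879 times the domain's width, with quartiles of 0.574 and 1.22, and was wider than the domain in 1127 cases (39.3%). At 1776 domains (61.9%) a shE2F1 peak of at least 5000 bp overlapped. Conversely, 144 shE2F1 peaks joined 2 to 4 domains, and the widest shE2F1 peak, 41241 bp, lay over DSCAML1, a neural cell adhesion gene. Choosing peaks for their width in one library favours narrower partners in the other, so the mirror selection is given beside it. There, 4551 of the 4557 wide shE2F1 peaks overlapped a control shRNA peak, 71.3% of their bases were covered in control shRNA, and the median ratio of widths was 0.577. The background fragment number found most often in a list was 1.02 for control shRNA and 1.27 for shE2F1, and its part in the number and width of peaks was not tested.

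Extremes of cover are given as single regions. The largest fully covered domain, 21516 bp at chr9:36782726-36804241, lay 29027 bp from PAX5, the B-cell lineage factor, inside 1 shE2F1 peak of 22058 bp. The domain of 19100 bp in PKNOX2 was fully covered by a shE2F1 peak of 35605 bp, and that of 14403 bp in ATP2B2, a calcium pump of sensory hair cells, by one of 16254 bp. The lowest cover, 6.07%, was found in a domain of 5144 bp at chr5:7769978-7775121 that holds a start site of ADCY2, an adenylyl cyclase gene. Its only shE2F1 peak was 312 bp wide. That short peak had a fold of 4.08, against 3.21 over the domain in control shRNA. In MYO3B, a myosin of hair cells and photoreceptors, 8.53% of a domain of 5556 bp was covered, with folds of 3.61 in control shRNA and 2.84 in shE2F1.

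Enrichment in the domains was broad and shallow. The mean fold in control shRNA ranged from 2.76 to 4.88 with a median of 3.34, beside 3.17 over all control shRNA peaks. The fold of the overlapping shE2F1 peaks, weighted by overlap, had a median of 3.13. It was lower in shE2F1 at 2471 domains (86.2%), beside 69.8% of all control shRNA peaks with a shE2F1 overlap, while the median log2 ratio was -0.10 in the domains and -0.08 over all. The fold was also lower in shE2F1 at 3698 of the 4551 wide shE2F1 peaks (81.3%), with a median log2 ratio of -0.08. Selection on either library thus gave the same sign. Over the whole lists the median fold was 3.17 in control shRNA and 2.95 in shE2F1, so a lower fold was not particular to the domains. The part of the background fragment number in this difference was not tested. A q-value of 0.01 or smaller (−log10 q of at least 2) was reached in control shRNA by 1910 domains (66.6%), compared with 26.1% of all control shRNA peaks, and a −log10 q of 5 by 1.

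**Figure D2:**
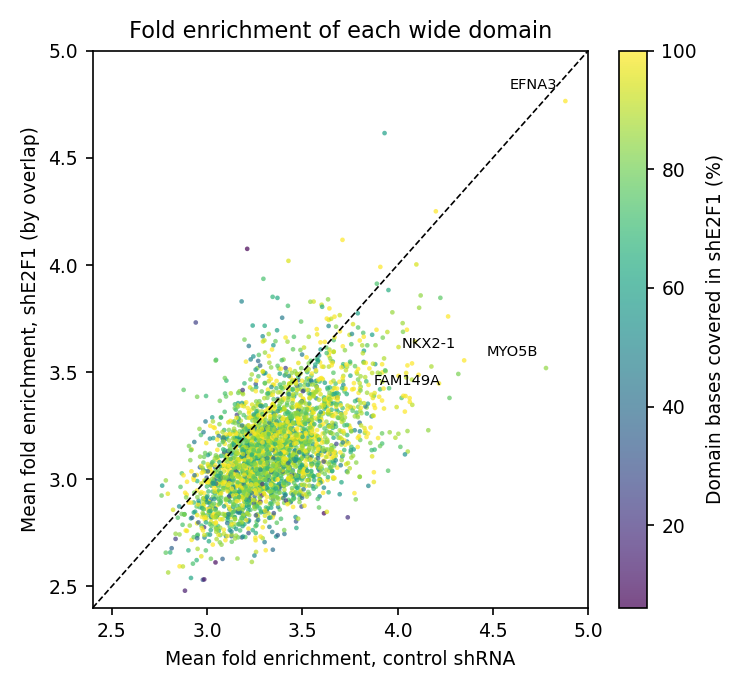
Mean fold enrichment of each of the 2868 wide domains in control shRNA (x axis) and in the overlapping shE2F1 peaks, weighted by overlap (y axis), coloured by the percent of domain bases covered in shE2F1. The dashed line marks equal values, and 2471 domains lie below it.

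The highest fold was found at EFNA3, which encodes a membrane-bound ephrin ligand. The domain at chr1:155078100-155083724 had folds of 4.88 in control shRNA and 4.77 in shE2F1 and was fully covered. MYO5B, a motor for vesicle recycling in epithelia, followed with folds of 4.78 and 3.52. This log2 ratio of -0.44 was the lowest of all domains. A pair of neighbouring domains on chromosome 14 came next. One, 12359 bp at chr14:36512126-36524484, contained all of NKX2-1, the lineage factor of thyroid and lung, with folds of 4.35 and 3.55. The other, 9295 bp long, lay beside it in SFTA3, a surfactant-associated gene, with folds of 4.32 and 3.49. The fifth, at FAM149A, had folds of 4.27 and 3.38. The 5 lowest folds in control shRNA, from 2.76 to 2.79, belonged to domains at SIGLEC11, CNPY1 (2 domains), PHACTR3 and FSTL4. At 4 of these 5 the fold was higher in shE2F1. Choosing extremes by the fold in control shRNA favours less extreme folds in shE2F1, so these differences are a description.

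A protein-coding gene was overlapped by 1439 domains (50.2%, 95% interval 48.3% to 52.0%), against 41% of all control shRNA peaks, which are shorter and meet fewer features. By bases, 45.8% of the domains lay in protein-coding genes, compared with 41.4% of all control shRNA peaks and 44.7% of the genome. Exons of these genes took 3.82% of the domain bases, and 2034 domains (70.9%) held none. Of all domains, 1141 (39.8%) lay wholly within a protein-coding gene, and 879 touched no annotated gene of any type. A transcription start site (TSS) of a protein-coding gene was inside 430 domains (15.0%, 95% interval 13.7% to 16.4%), beside 3.46% of all control shRNA peaks. Per Mb there were 56.7 such TSSs in the domains, 78.5 in all control shRNA peaks and 50.2 in the genome. GC content was 48.3% in the domains, 47.4% in all control shRNA peaks and 40.9% in the genome, and CpG dinucleotides numbered 14.2, 13.8 and 10.0 per kb.

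In all, 792 of the 19970 protein-coding genes (3.97%) were overlapped by a domain, 270 by at least 2 and 59 by at least 5. PKNOX2, a homeobox transcription factor of the TALE class, had the most. Its body of 268703 bp at chr11:125164687-125433389 met 21 domains of 5140 to 19100 bp, which took up 71.7% of it. In control shRNA 84.3% of the gene lay in H3K27me3 peaks and in shE2F1 86.2%. The 37 control shRNA peaks on the gene faced 28 in shE2F1, of which 17 reached 5000 bp. Cover of the single domains ran from 74.9% to 100%. No E2F1 peak fell on the gene, and the nearest in DMSO and GSK126 lay at the far side of the gap upstream, at the start of TMEM218.

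**Figure D3:**
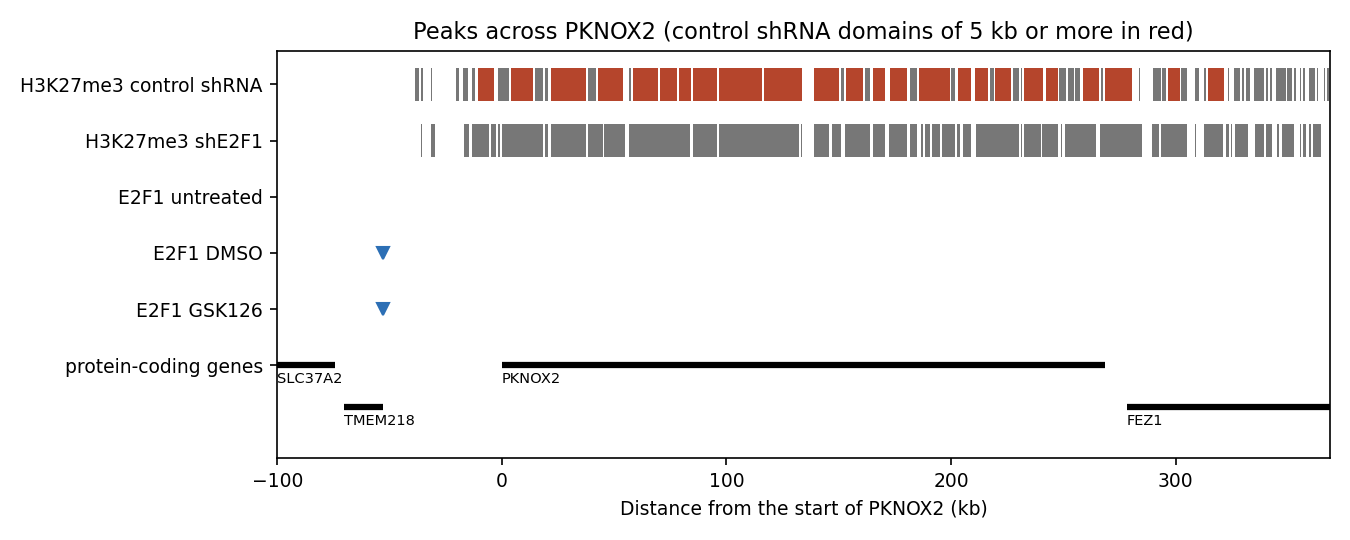
Peaks across PKNOX2 and its neighbours by distance in kb from the start of the gene. Boxes are H3K27me3 peaks to scale, red for control shRNA domains, triangles are E2F1 peak positions, and lines are protein-coding genes. The 21 domains fill 71.7% of PKNOX2, and the only E2F1 peaks in view lie 52.9 kb upstream (DMSO and GSK126 lists).

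The other genes with the most domains differed widely in function. SLIT3, a secreted axon guidance cue, met 19 domains over 22.4% of its body. CACNA1C, the pore subunit of an L-type calcium channel, met 18 over 17.7%. DSCAML1 met 17 domains over 45.0%, of which the widest was 19773 bp, and PLXNA4 met 16 over 25.4%. RBFOX3 met 14, over 23.8%, and NFASC, an adhesion protein of axon nodes, met 13, over 44.7%. MSI2, an RNA-binding protein of stem cells, met 15 over 26.4%, TMEM178B met 18 over 37.3%, and an unnamed locus, ENSG00000285471 on chromosome 17, met 13. The genes differed in how many of their domains were free of exons of protein-coding genes, beside 70.9% of all domains. In RBFOX3 these were 13 of 14 and in TMEM178B 15 of 18, whereas in SLIT3 they were 11 of 19, in PLXNA4 8 of 16 and in NFASC 4 of 13.

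Over the whole body of these genes, PDZD2 included, the share in H3K27me3 peaks was larger in shE2F1 in 9 of 11, and PLXNA4 and TMEM178B were the exceptions. In CACNA1C it was 49.5% in control shRNA and 66.0% in shE2F1, and in RBFOX3 it was 54.8% and 71.8%. In PLXNA4 it was 50.4% and 47.1%, whereas in TMEM178B it was 64.5% and 64.3%. Over all protein-coding genes the shares were 4.49% and 5.73%. With 1 library each, these differences have no error.

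Domains that held a TSS of a protein-coding gene reached 24704 bp, at RSPO1, against 38715 bp over all domains. Behind RSPO1 came CD300LF, a receptor of myeloid cells, with a domain of 20952 bp. It was followed by POU2F3, the master regulator of tuft cells, with 19848 bp, and CNTN2, an axonal adhesion protein, with 19566 bp. HRH2, the histamine receptor of the stomach, had 19103 bp. The domain at HRH2 was 92.5% covered in shE2F1, with folds of 3.48 in control shRNA and 3.21 in shE2F1. The receptor genes ACKR1, CRHR1, FFAR2, GRM4 and MC2R were also among the 20 widest, with domains of 14930 to 16567 bp. The lowest cover among these 20 was 64.2% at PAMR1 and the highest 96.1% at GRM4, the gene of a glutamate receptor.

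Lists of genes of known function were set beside all protein-coding genes, as a description. Of 70 transcription factors of development 5 (7.14%) met a domain, against 3.97% of all protein-coding genes, and 5.35% of the bases of this list lay in domains, against 0.729%. They were NKX2-1 and PAX2, PAX5, PAX7 and LHX2, which specify kidney, B cells, muscle progenitors and forebrain. All domain bases of the list lay in these 5 genes, with 37400 bp in PAX5 and 36471 bp in PAX2. Both shares of the list thus rest on few genes. PAX2 met 4 domains, 86.6% to 100% covered in shE2F1, and their folds were 3.19 to 3.45 in control shRNA, against 2.95 to 3.40 in shE2F1. At PAX5 there were 4 as well, of which the widest measured 19309 bp. Of 39 HOX genes, which pattern the body axis, only HOXC4 was met, by 2 domains of 6568 and 6285 bp. The HOX genes had a median length of 4.22 kb, against 27.5 kb for all protein-coding genes. By bases, 3.22% of the HOX list lay in domains, against 0.729%, and this share rests on HOXC4 alone. Of 73 large adhesion, synapse and ion channel genes 7 were met, yet only 0.164% of their bases lay in domains. CTNND2 and TENM2, adhesion genes of neurons, met 6 each, OPCML, a cell surface adhesion gene, met 5, and the other four met 1 each. Among 413 olfactory receptors 9 were met (2.18%), and 1.17% of the bases of that list lay in domains. Of 240 zinc finger genes of chromosome 19 only ZNF536 was met, with 0.0681% of the bases of the list.

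In several short lists no gene met a domain, where the 3.97% of all protein-coding genes would amount to very few genes, so that these counts do not set the lists apart. None of 40 E2F target genes, 20 housekeeping genes, 12 genes of PRC2 or 36 mesenchymal and basal genes met a domain. Nor did any of 53 clustered protocadherins. Of 27 genes of luminal breast identity 2 were met. One was PRLR, the prolactin receptor, with a domain of 5709 bp inside the gene. The other was FOXA1, the pioneer factor of luminal cells, where a domain of 6690 bp overlapped the gene by 56 bp including a start site. The FOXA1 domain had a fold of 3.87 in control shRNA and 3.11 in shE2F1 and was 94.8% covered.

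The domains were spread unevenly over chromosomes. Chromosome 20 held 318 domains, 4.97 per Mb without assembly gaps, against 0.985 in the genome, and so 11.1% of all domains. Chromosomes 19, 17 and 11 followed with 2.69, 2.28 and 2.26 per Mb. Chromosome 1 had 307 domains and 1.33 per Mb, and the lowest values were 0.194 on chromosome 13 and 0.116 on X, with 18 domains. The order at the top was the same for wide shE2F1 peaks, at 7.38 per Mb on chromosome 20 and 5.29 on 19. Peaks of all widths were denser there too. Chromosome 20 had 80.4 control shRNA peaks per Mb against 42.6 in the genome, and 10.7 E2F1 peaks per Mb in DMSO against 5.39, whereas it had 0.532 per Mb in untreated cells against 0.363. Copy number in this line is not known from the peak lists. Its part and that of this general density in the number of domains were not tested. As a share of each chromosome's control shRNA peaks, domains were 6.18% on chromosome 20, 3.98% on 19 and 0.450% on X. Cover in shE2F1 was 87.9% on chromosome 20 and 80.6% with that chromosome left out.

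**Figure D4:**
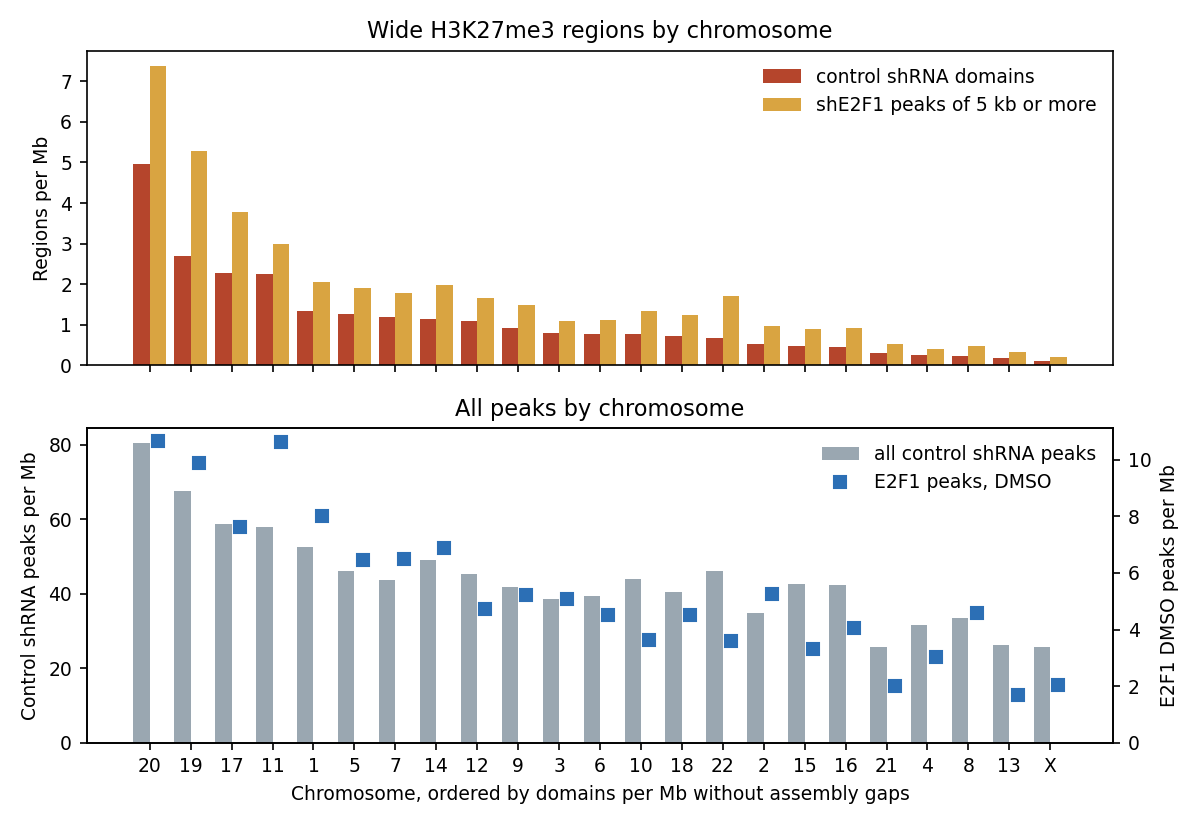
Top, domains of control shRNA and shE2F1 peaks of 5 kb or more per Mb of each chromosome. Bottom, all control shRNA peaks per Mb (bars, left axis) and E2F1 peaks per Mb in DMSO (squares, right axis), with chromosomes ordered from 4.97 domains per Mb on chromosome 20 to 0.116 on X.

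Domains lay in runs. Of the 3044 windows of 1 Mb, 758 held a domain, and the 195 windows with at least 5 held 1807 domains (63.0%). The median distance to the next domain was 17553 bp, and 2004 domains (69.9%) were within 50 kb of another. The fullest window, chr12:4000001-5000000, held 28 domains over 231 kb and includes CCND2, a cyclin gene, FGF23 and FGF6, which encode growth factors, and the potassium channel genes KCNA1 and KCNA6. Next were the windows of DSCAML1 on chromosome 11 with 26, MSI2 on chromosome 17 with 25 and PKNOX2 on chromosome 11 with 24. Control shRNA peaks of all widths were dense there too, with 125 to 198 in each of these windows and the fullest, against 42.6 per Mb in the genome. The part of this density in the runs was not tested.

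The surroundings of the domains carried the mark as well. Within the first 1 kb outside, 5.95% of the bases lay in control shRNA peaks, since a broad peak ends where the caller finds no nearby enrichment to join. From 1 to 2 kb outside it was 46.3% and from 20 to 50 kb 37.1%, beside 4.92% over the genome. For shE2F1 peaks the first 1 kb was covered to 47.6%, the second to 51.7% and the stretch from 20 to 50 kb to 42.0%, beside 6.14%. At 1127 domains (39.3%) the widest overlapping shE2F1 peak was wider than the domain and so ran across an edge. The edges were set in control shRNA by the rule.

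**Figure D5:**
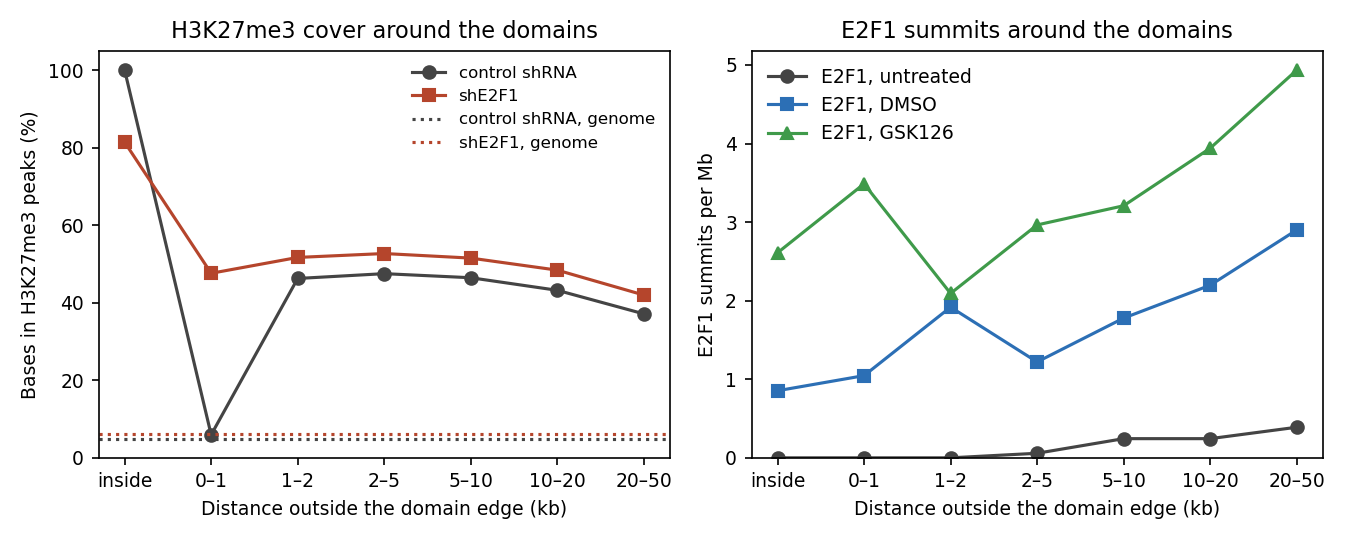
H3K27me3 cover (left, percent of bases) and E2F1 summits per Mb (right) inside the domains and by distance in kb outside their edges. Control shRNA cover is 100% inside by definition and 5.95% in the first 1 kb, and dotted lines are the cover of the genome. E2F1 summits reach 4.93 per Mb in GSK126, 2.90 in DMSO and 0.389 in untreated cells at 20 to 50 kb. The rise is not steady in DMSO and GSK126.

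E2F1 peaks were scarce in the domains, and the 3 lists differed. In untreated cells 0 of 2868 domains overlapped a peak, against 0.0976% of all control shRNA peaks. This allows a share of up to 0.105% by the limit of 3 counts and 0.129% by the exact 95% interval. In DMSO 19 domains overlapped a peak (0.662%, 95% interval 0.399% to 1.03%), against 1.34%. In GSK126 there were 58 (2.02%, 1.54% to 2.61%), against 1.42%. A peak was present in both DMSO and GSK126 at 11 domains and in any list at 66 (2.30%). For untreated cells the limit lies above the background share, so that a lower share in the domains was not detectable with the 1056 peaks of that list.

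Counted per Mb of sequence, the E2F1 summits were 0 in untreated cells, beside 0.517 in all control shRNA peaks and 0.363 in the genome. The upper limit for untreated cells was 0.142 by 3 counts and 0.175 by the exact 95% Poisson interval. In DMSO there were 0.854 summits per Mb of domain (95% exact Poisson interval 0.506 to 1.35), beside 7.80 in all control shRNA peaks and 5.39 in the genome. In GSK126 there were 2.61 (1.97 to 3.40), beside 7.95 and 4.90. All 3 lists were thus sparser in the domains than in the genome, with intervals that did not reach the genome value. The density falls with peak width, from 35.6 per Mb in DMSO in the shortest class of control shRNA peaks, so the value for all control shRNA peaks is weighted by short ones. In control shRNA peaks of 2000 to 4999 bp it was 0 in untreated, 2.999 in DMSO and 3.75 in GSK126 cells. The median distance from a domain to the nearest summit was 552762 bp in untreated, 133735 bp in DMSO and 87623 bp in GSK126 cells.

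Summits in the domains were more numerous in GSK126 than in DMSO at start sites, while away from them the intervals of both lists overlapped. Of 18 summits in DMSO 4 were within 1 kb of a TSS of any gene, and of 55 in GSK126 32 were. These are 0.190 and 1.52 per Mb of domain, beside 2.30 and 3.62 in the genome. The remaining summits amounted to 0.664 per Mb of domain in DMSO (95% exact Poisson interval 0.363 to 1.11), beside 3.09 in the genome. In GSK126 they amounted to 1.09 (0.692 to 1.64), beside 1.28. For summits away from start sites in GSK126, the domains and the genome did not differ beyond counting error. Of the 1194 distinct start positions of protein-coding genes inside domains, many of which share a gene, 9 (0.754%) had a DMSO summit within 1 kb, 106 (8.88%) a GSK126 summit and 0 an untreated one. Over all 145921 start positions the shares were 23.3%, 35.7% and 4.24%. With 1 library per condition, an effect of GSK126 and a difference between the immunoprecipitations cannot be told apart.

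The 6 DMSO summits of highest fold all overlapped a GSK126 peak, whereas the weakest of the 18, at GALNT14 with a fold of 3.37, did so too. At TENM4, a teneurin of synaptic adhesion, the fold was 7.39 in DMSO and 8.30 in GSK126. BLACAT1, a gene first described as a long noncoding RNA of bladder cancer, had 6.63 and 7.97 in the middle of a domain of 10525 bp that was fully covered in shE2F1. The site 70017 bp from FOXD2, a forkhead gene, had 5.94 and 7.01. At FSTL4, a follistatin-like gene, the values were 4.97 and 8.67, and at DAB2IP, a Ras GTPase-activating protein, 4.43 and 7.66. These 5 sites carry the motifs printed above. The sixth, 12466 bp from DUSP8, a phosphatase gene, had 5.72 and 7.13 and no motif within 100 bp of the summit. Among the 9 shared sites 8 had the higher fold in GSK126, against 93.3% of all 7385 DMSO peaks with a GSK126 partner. The exception was GIMAP5, a GTPase of lymphocytes, with 4.31 in DMSO and 2.78 in GSK126.

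In GSK126 46 summits in domains had no DMSO partner, and 31 summits stood within 1 kb of a start site of 31 protein-coding genes. Only 16.4% of the GSK126 summits in domains overlapped a DMSO peak, compared with 50.2% of all GSK126 peaks. Of the DMSO summits 50.0% had a GSK126 partner, compared with 47.0% of all. The genes named next were chosen after their values were seen, and their domains were mapped in cells without GSK126. SHH, the hedgehog morphogen, had a GSK126 summit of fold 5.27 at 455 bp from its start, in a domain of 6470 bp with folds of 3.90 in control shRNA and 3.39 in shE2F1. WNT1, a Wnt ligand, had one of fold 5.65 at 474 bp. CHRD, which encodes the BMP antagonist chordin, had 7.12 at 95 bp, and FGFR2, a receptor of fibroblast growth factors, 5.34 at 246 bp. BARX2, a homeobox factor, had 5.23, and OVOL2, a repressor of mesenchymal genes, had 3.69, each within 1 kb of the start. HELT, a repressor of the bHLH family, had 3.03 at 65 bp. The −log10 q was 3.44 at OVOL2 and 2.62 at HELT, where the lowest of the GSK126 list was 2.02.

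Signalling and membrane genes were also among them. SCN4B, a sodium channel subunit, had a GSK126 summit of fold 8.06 at 59 bp from its start, in a domain of 18784 bp, and ITGA9, an integrin, one of 7.78 at 65 bp in a domain of 11213 bp. GABBR2, a subunit of the GABA-B receptor, had 7.51 at 134 bp. EFNA3, the domain of highest H3K27me3 fold, had a pair of summits of 5.40 and 3.93. SLIT3, whose body met 19 domains, had a GSK126 summit in 2 of them, far from its start, the stronger with a fold of 4.67. The H3K27me3 peaks of shE2F1 cells covered 52 of the 55 GSK126 summits and 17 of the 18 DMSO summits, beside 81.4% of all domain bases.

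The 9 DMSO summits without a GSK126 partner all lay over 1 kb from the start of any protein-coding gene. A domain of 8352 bp at chr1:157273101-157281452, which contains a start of the noncoding RNA gene LINC02772, held 2 of them, the stronger with a fold of 4.26. Another, of fold 3.99, lay in CACNA1E, a neuronal calcium channel gene, in a domain of 10709 bp. The strongest of the 9 had a fold of 4.38 and lay 51950 bp from ENPP6, a phosphodiesterase of oligodendrocytes. Its domain of 6286 bp on chromosome 4 was 53.8% covered in shE2F1. The −log10 q-values of the 9 summits ran from 2.34 to 3.82, where the lowest of the DMSO list was 2.01.

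The median fold of summits in domains was below that of their lists. It was 4.27 in DMSO against 4.57 over the list, and 4.80 in GSK126 against 6.33. A motif lay within 100 bp of 7 of 18 DMSO summits (38.9%), beside 17.5% of the list, and of 15 of 55 GSK126 summits (27.3%), beside 26.9%. With 18 summits, the DMSO median and share rest on few sites.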

How the data were processed

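ChIP-seq peak lists of 5 libraries were used, 1 per group, and the input library was not analysed here. Per the study's methods, the authors trimmed reads, aligned them to GRCh38 and called peaks with MACS2, narrow for E2F1 and broad for H3K27me3. The submitters' processing notes name Bowtie2 2.5.2, cutadapt 4.5 and MACS2 2.2.9.1. The deposited fold is a ratio of signal to background, averaged over a broad peak and taken at the summit of a narrow one. The deposited −log10 p-value and −log10 q-value are MACS2's own, the p-values served only to recover the fragments expected as background, and the deposited score was not used. The narrow lists of the authors also hold the offset of the summit. The labels state sonication for every library, whereas the methods state micrococcal nuclease for histone marks.

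Intervals were intersected in Python 3.11.15 (pandas 2.3.3, numpy 2.4.6, scipy 1.17.1) with functions checked on simulated intervals. Genes came from GENCODE 44 on chromosomes 1 to 22 and X, and a TSS is the start of any transcript. Start sites of protein-coding genes thus include their other transcripts. Read depth was read from the recovered background, which was at least 0.668 fragments in untreated, 1.82 in DMSO and 1.70 in GSK126 cells, while the value found most often in the untreated list was 1.88. For the broad lists only 9.24% and 8.13% of short peaks could be solved. Shares carry exact Clopper-Pearson and densities exact Poisson 95% intervals, which cover counting error only and treat regions as independent. Nothing was tested between conditions. Regions were named by rank of width, fold, cover and E2F1 summits, and genes by domain bases, number of domains and lists of known function. Domains with peaks in both DMSO and GSK126 were named in addition. The members and lists were chosen with earlier results of these data known. One gene named by these rules is not reported here.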

Additional observations from a re-analysis of the deposited data

How the results depend on the processing

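The number of domains, 2868, was 8981 with a minimum width of 3000 bp, 335 with 10000 bp, 1432 where control shRNA and shE2F1 peaks both needed a −log10 q of 2, 6217 after joining peaks within 1000 bp and 4551 in the mirror selection. Cover in shE2F1, 81.4%, was 77.3% and 86.3% at these widths, 48.1% with shE2F1 peaks of −log10 q of at least 2, 86.3% after joining and 71.3% in the mirror. The median width ratio, 0.879, was 1.15 after joining and 0.577 in the mirror. The share of domains in a protein-coding gene, 50.2%, was 45.6% with at least 50% of the domain inside and 69.4% for genes of any type. The share with a TSS, 15.0%, was 18.2% within 1000 bp and 26.8% for any gene. With E2F1 peaks of −log10 q of at least 5, domains with a peak were 0.349% in DMSO and 1.39% in GSK126. Density was 1.59 per Mb in DMSO from 3000 bp, and 1.09 in GSK126 for summits over 1000 bp from every TSS, an alternative chosen after seeing the data. For the untreated list the value was 0 under each alternative run. Chromosome 20 kept the highest density by full length and by bases. Leaving out chromosome 20, also added after seeing the data, gave a cover of 80.6% and densities of 0.915 in DMSO and 2.85 in GSK126. No paired analysis was possible because each group has 1 library. The number of peaks limits the untreated list most.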
